A study of Mus musculus with 2 samples.

Results

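The 10 genes described here encode transcription factors of T-lineage commitment: Tcf7, Lef1, Gata3, Bcl11b, Tox, Myb, Runx1, Runx3, Cbfb and Satb1. They were taken by name, out of 21883 protein-coding genes, with earlier results of these data known. Every Myc-Tag ChIP-seq interval that overlapped a gene body or the 50 kb on either side of it was assigned to that gene. By this rule 20 of the 3477 intervals of the Myc-Tag library (0.575%) lay at the 10 genes, which are spread over 9 chromosomes, and each gene had at least 1. By the same rule 33.4% of all protein-coding genes had one.

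In chromatin immunoprecipitation followed by sequencing (ChIP-seq), an antibody recovers the DNA fragments bound by a protein, and places where fragments pile up are called as intervals, each with a summit. Here the antibody recognized the Myc-Tag, a short peptide fused to the homeoprotein Dlx5. The transgene Lck-Dlx5 places tagged Dlx5 under the Lck promoter, which is active in thymocytes, in mice that were labelled C57BL/6 for the ChIP library and C57BL/7 for the control library. The cells were T-cell lymphoma, given as a primary tumor by the sample labels and as an established Lck-Dlx5 lymphoma cell line by the methods, and no treatment, time or age was given. The control is an input by its label, chromatin sequenced without the antibody, and an IgG precipitate by the methods. The methods name 1 line, so the data describe 1 lymphoma. There was 1 library of each, so nothing below has a replicate check and no p-value was computed. There was no lymphoma without the transgene, so recovery through the tag cannot be told apart from recovery by the antibody without it. The file reports called ChIP intervals, not expression, so whether the 10 genes were expressed in these cells was not measured here. Positions are on mouse build mm10, and the height of a summit is a deposited score, a whole number without a stated normalization. The files used here give no number of reads, and the depth is therefore unknown.

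Thymic progenitors become T cells in response to Notch signals from the thymic stroma. Tcf7 (the protein TCF-1) is switched on early in this sequence, Gata3 and Bcl11b follow, and Bcl11b closes off other fates. Runx proteins bind DNA as heterodimers with Cbfb, Myb supports precursor survival and proliferation, Tox is needed for CD4 lineage development, and Satb1 organizes chromatin in thymocytes.

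**Figure D1:**
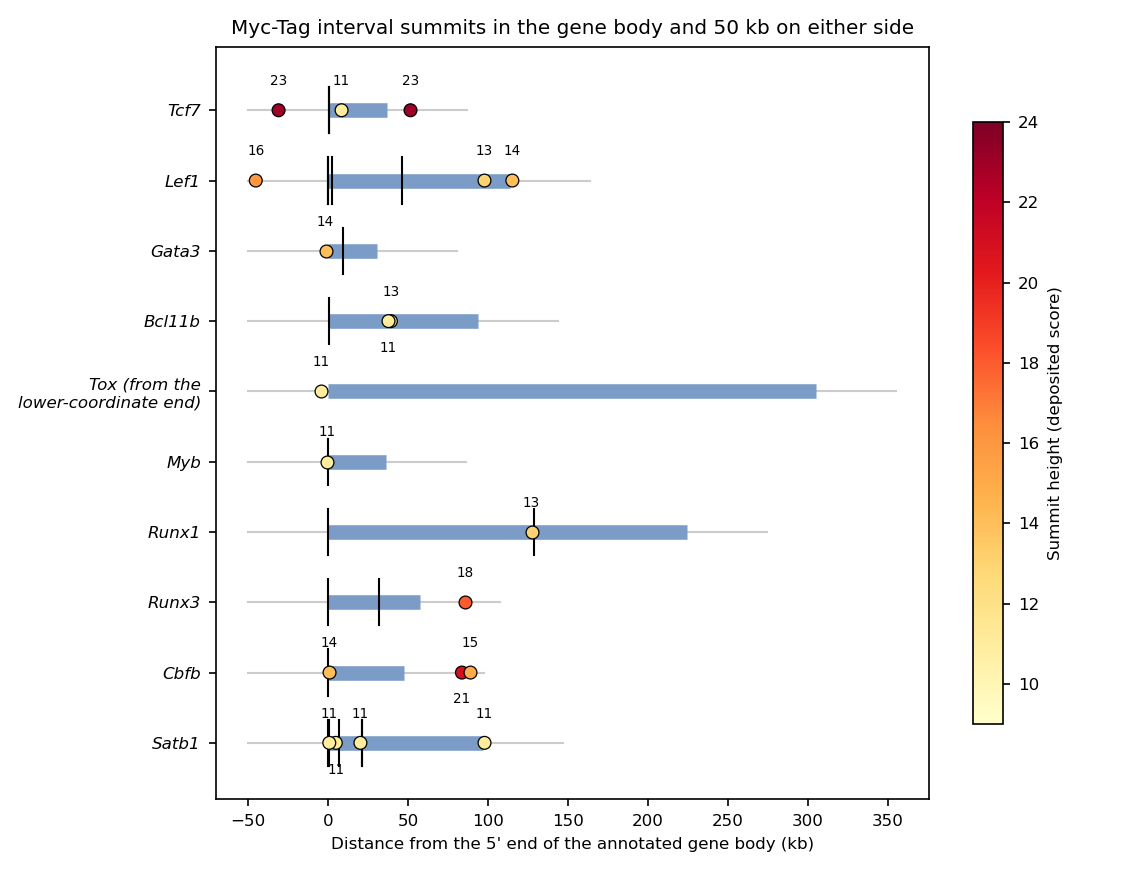
Summits of the 20 Myc-Tag intervals at the 10 genes. The x axis is the distance in kb from the 5′ end of the annotated gene body, or from the lower-coordinate end for Tox, whose strand was not used. Blue bars are gene bodies, grey lines the 50 kb on either side, black ticks annotated starts, and points are summits coloured and labelled by their height (deposited score). Satb1 has 4 summits of height 11, Tcf7 has heights of 23 on both sides of its body, and the whole body of Tox holds none.

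The HMG-box factor genes Tcf7 and Lef1 each had 3 intervals, and none of these lay within 1 kb of an annotated start. At Tcf7 (chr11:52246527-52283383) the interval at chr11:52314063-52314922 lay upstream, with its summit 30889 bp outside the gene body and a height of 23. Only 397 of the 3477 Myc-Tag summits (11.4%) were higher. This interval overlapped the long noncoding RNA gene Gm30217, and Tcf7 was the nearest protein-coding gene. Among the intervals within 50 kb, it was the tallest whose nearest protein-coding gene was 1 of the 10 genes. A second Tcf7 interval, at chr11:52274610-52275871, lay inside the gene, 7696 bp downstream of the nearest annotated start, with a height of 11. The third, at chr11:52231528-52232403, also had a height of 23 but lay inside the neighbouring gene Skp1, which encodes a ubiquitin ligase subunit, and its summit was 1286 bp from an end of that gene.

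Lef1, which encodes a close relative of TCF-1, spans chr3:131110297-131224357 and has 4 annotated starts in the promoter table. The summit upstream of the gene was 45145 bp from the first start and had a height of 16, in the interval chr3:131064995-131065469. Inside the gene, toward its 3′ end, the interval chr3:131207820-131208880 had a height of 13. The interval just past the 3′ end, chr3:131225141-131227232, had a height of 14 and was 2092 bp wide, the widest of the 20. Its summit was 1163 bp beyond the gene. The summits nearest to the 4 starts were between 45.1 and 51.8 kb away, so that the Lef1 promoter region itself had no called interval.

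The zinc finger factor genes showed distinct placements. Gata3 (chr2:9857078-9887953) had 1 interval, at chr2:9889088-9890223, with a height of 14. Its summit was 1519 bp upstream of the annotated gene body, 10872 bp from the start listed in the promoter table, and 68 bp from an end of the long noncoding RNA gene 9230102O04Rik, which overlaps Gata3. Bcl11b (chr12:107910403-108004145) had 2 intervals inside the gene, separated by only 297 bp. The first, chr12:107964551-107965134, had a height of 13 and the second, chr12:107965432-107966470, a height of 11. Their summits were 38598 and 37078 bp downstream of the start. No other interval lay closer to Bcl11b than 608903 bp, and the interval at that distance had Evl as its nearest protein-coding gene.

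Tox, which encodes an HMG-box nuclear protein, has the longest body of the 10 genes, 305 kb (chr4:6686353-6991557), and no interval lay inside it. Its 1 interval, chr4:6681915-6682322, had a height of 11 and was the narrowest of the 20, at 408 bp. The summit was 4209 bp outside the lower-coordinate end of the gene.

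At Myb (chr10:21124930-21160984), a factor of immature blood cells, the interval chr10:21160729-21161564 covered the annotated start. Its summit was 328 bp upstream and its height was 11. The 250 bases before the Myb start all lay inside the interval, as did part of the same window at a Satb1 start. These were the member promoters that an interval overlapped, and are given from RefSeq (GRCm38.p6, the assembly of mm10), 5′ to 3′ on the strand of the gene, ending at the base before the start. Capitals mark the bases inside the Myc-Tag interval.
Myb, chr10:21160985-21161234, minus strand: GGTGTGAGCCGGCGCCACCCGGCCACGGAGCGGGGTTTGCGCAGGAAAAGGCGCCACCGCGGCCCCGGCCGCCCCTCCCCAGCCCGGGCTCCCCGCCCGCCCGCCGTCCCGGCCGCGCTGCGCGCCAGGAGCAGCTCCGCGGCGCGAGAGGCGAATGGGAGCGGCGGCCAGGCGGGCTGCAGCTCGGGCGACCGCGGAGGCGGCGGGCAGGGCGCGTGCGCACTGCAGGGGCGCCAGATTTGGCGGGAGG
Satb1, chr17:51832648-51832897, minus strand: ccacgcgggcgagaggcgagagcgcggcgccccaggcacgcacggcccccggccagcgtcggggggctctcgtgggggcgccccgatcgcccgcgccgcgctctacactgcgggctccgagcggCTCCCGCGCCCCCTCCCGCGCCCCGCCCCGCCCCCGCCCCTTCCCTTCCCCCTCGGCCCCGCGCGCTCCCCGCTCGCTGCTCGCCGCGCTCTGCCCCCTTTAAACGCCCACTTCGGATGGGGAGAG
Both windows are rich in G and C, at 81.2% for Myb and 80.8% for Satb1, against a median of 52.4% over the 32851 promoters of the table and of 63.6% over the 1679 that lay wholly inside a Myc-Tag interval. Over the windows before all 19 member starts the median was 65.2%, and those without an interval ranged from 44.8 to 78.8%. In the Satb1 window 126 of the 250 bases lay in the interval.

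Satb1 (chr17:51736187-51833290), with 5 annotated starts, had 4 intervals, the most of the 10 genes. All 4 had a height of 11. The interval chr17:51832353-51832773 had its summit 167 bp downstream of a start, and chr17:51812737-51813305 had its summit 840 bp upstream of another. Between them, chr17:51828112-51828634 had its summit 1828 bp upstream of a start. Thus 4 of the 5 Satb1 starts had a summit within 1 kb, and the fifth was 1828 bp from one. The remaining interval, chr17:51735182-51735712, lay 731 bp beyond the 3′ end of the gene.

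The Runx genes and their partner differed in where intervals lay. Runx1 (chr16:92601466-92826074) is transcribed from a distal and a proximal promoter. Its 1 interval, chr16:92698703-92699235, lay inside the gene with a height of 13, and its summit was 1487 bp upstream of the proximal start and 127 kb from the distal start. Runx3 (chr4:135120645-135177990), which acts in CD8 lineage cells, had no interval in its body. Its 1 interval, chr4:135206067-135206814, had a height of 18, but its summit was 28410 bp downstream of Runx3 and only 7569 bp from Clic4, a chloride channel gene. Runx3 was the only member that was not the nearest protein-coding gene of any interval. Cbfb (chr8:105170674-105217989) had an interval inside the gene near its start, chr8:105170762-105171976, with a height of 14 and a summit 974 bp downstream of the start. The start itself was not covered, in contrast to a start of Myb and of Satb1. The other 2 intervals counted at Cbfb, with heights of 21 and 15, lay 36379 and 41755 bp downstream, at B3gnt9, which encodes a glycosyltransferase, and at Tradd, which encodes an adaptor of TNF receptor signalling, in a window that holds 6 protein-coding genes.

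Homeodomain proteins of the Dlx family recognize sites with the core TAATT. Among the 19 windows of 250 bases before the member starts (9 genes, since Tox had none in the table), 3 held TAATT on either strand (AATTA on the other). It occurred in 8223 of all 32851 promoters of the table and in 212 of the 1679 wholly inside a Myc-Tag interval (12.6%). Those 1679 had a median of 63.6% G and C, against 52.4% over all promoters. The paper reports that most of the Dlx5 consensus found by its motif search was TAATT. That search was not repeated here, and the promoter windows are not the sequences of the intervals. None of the 19 held the longer TAATTA, which contains TAATT and AATTA, against 4.84% of all promoters. The 3 windows with the core are printed below, and none of them lay in an interval. The Myb and Satb1 windows shown before, the latter with 126 of 250 bases in an interval, lack the core. So do most member windows without an interval, and a relation between core and intervals was not tested. Capitals mark TAATT.
Lef1, chr3:131156044-131156293, plus strand: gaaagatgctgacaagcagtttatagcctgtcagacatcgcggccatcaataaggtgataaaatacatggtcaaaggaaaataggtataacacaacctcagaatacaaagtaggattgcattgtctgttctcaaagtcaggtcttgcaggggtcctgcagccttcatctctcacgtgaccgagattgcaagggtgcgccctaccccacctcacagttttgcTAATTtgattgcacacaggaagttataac
Runx1 distal promoter, chr16:92826075-92826324, minus strand: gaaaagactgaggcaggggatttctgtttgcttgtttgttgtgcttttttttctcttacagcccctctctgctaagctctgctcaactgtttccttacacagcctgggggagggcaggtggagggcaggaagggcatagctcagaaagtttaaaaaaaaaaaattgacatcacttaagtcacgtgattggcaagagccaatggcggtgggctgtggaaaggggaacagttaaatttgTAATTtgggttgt
Satb1, chr17:51812185-51812434, minus strand: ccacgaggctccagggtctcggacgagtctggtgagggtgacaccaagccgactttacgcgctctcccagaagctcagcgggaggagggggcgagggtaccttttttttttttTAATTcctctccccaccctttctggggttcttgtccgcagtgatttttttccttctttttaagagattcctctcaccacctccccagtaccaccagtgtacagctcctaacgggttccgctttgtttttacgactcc
The match began 29 bases before the Lef1 start, 13 before the distal Runx1 start and 137 before the Satb1 start. For comparison, the RUNX core TGTGGT, on either strand, occurred in 1 of the 19 windows, that of the first Runx3 start, and in 4614 of all promoters. The ETS core GGAA (TTCC on the other strand) occurred in 18 of the 19 and in 93.4% of all promoters. These matches describe the letters in the promoter windows only. Sequence at the intervals away from starts was not used here.

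The share of genes with an interval depends on how much sequence is searched, so it was set beside genes of like length. All 10 members had an interval in the body or within 50 kb, whereas 33.4% of all protein-coding genes did (95% Wilson interval 32.7 to 34.0%). The members have long bodies, with a median of 75.5 kb against 17.2 kb over all protein-coding genes. Among the 6811 protein-coding genes whose body length lay within the range of the members, 30.9 to 305 kb, the share was 35.6%. With 100 kb it was all 10 members, 44.7% of all protein-coding genes and 46.9% of those of like length. In the gene body alone, 7 of the 10 members had an interval, all but Gata3, Tox and Runx3, against 13.4% of all protein-coding genes and 17.5% of those of like length. With 10 kb on either side it was 9 of the 10 members, without Runx3, against 19.0% and 22.5%. At least 2 intervals within 50 kb were found at 5 members, against 11.2% of all protein-coding genes and 10.5% of those of like length. At least 3 were found at 4 members (Tcf7, Lef1, Cbfb and Satb1), against 3.55% and 2.94%, and 4 were found at Satb1, against 1.01% and 0.631%. Tcf7 and Cbfb reached 3 only with intervals nearer to Skp1, B3gnt9 and Tradd, and the background counts include such intervals too. Of the 10 members, 9 were the nearest protein-coding gene of an interval in their window, against 13.5% of all protein-coding genes and 17.9% of those of like length. As a density, the windows of the members held 9.79 intervals per Mb (exact 95% Poisson interval 5.98 to 15.1) and those of genes of like length 2.50 per Mb (2.40 to 2.60). The Wilson and Poisson intervals cover counting error only, and neighbouring Myc-Tag intervals are not independent. The 10 genes were not a random draw and were chosen with earlier results of these data known, so the differences were not tested.

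**Figure D2:**
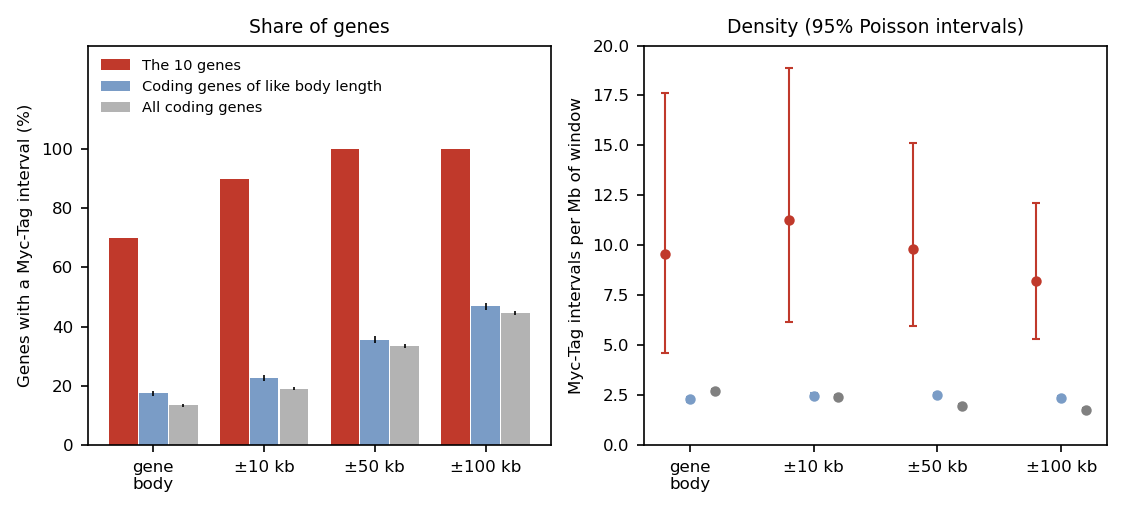
Left, the share of genes with a Myc-Tag interval (%) in the body alone or with 10, 50 or 100 kb on either side, for the 10 genes, for protein-coding genes whose body length lies within the range of the 10, and for all protein-coding genes (error bars, 95% Wilson intervals of the last 2 groups). Right, intervals per Mb of window in the same colours with exact 95% Poisson intervals. The 10 genes lie above both other groups at each distance, with 70 to 100% of genes and 8.22 to 11.3 intervals per Mb.

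Most of the intervals at the 10 genes were below the median height of the library. Their median height was 13, against 16 over all 3477 summits, and they ranged from 11 to 23. A height of 11 was found at 8 of the 20, in Tcf7, Bcl11b, Tox, Myb and all 4 of Satb1, whereas 9.55% of all summits were at 11 or lower. At or above 19, the upper quartile of all summits, there were 3 of the 20 against 975 of all 3477 (28.0%). They were the pair in the Tcf7 window and the one at B3gnt9. When only the 16 intervals whose nearest protein-coding gene end was that of the member were kept, the median was 12 and 1 reached 19, the upstream Tcf7 interval. Restricting all intervals in the windows to heights of at least 16 left 4 of the 10 genes with an interval (background 20.2% of all protein-coding genes and 1360 of the 6811 of like length) and to at least 19 left 2, Tcf7 and Cbfb (background 12.3% and 11.6%). In these counts Runx3 and Cbfb were kept only by intervals nearer to Clic4 and B3gnt9. The median width was 848 bp for the 20 and 752 bp for all. None of the 20 was called in the control library, in which 28 intervals were called (0.805% of the Myc-Tag intervals).

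**Figure D3:**
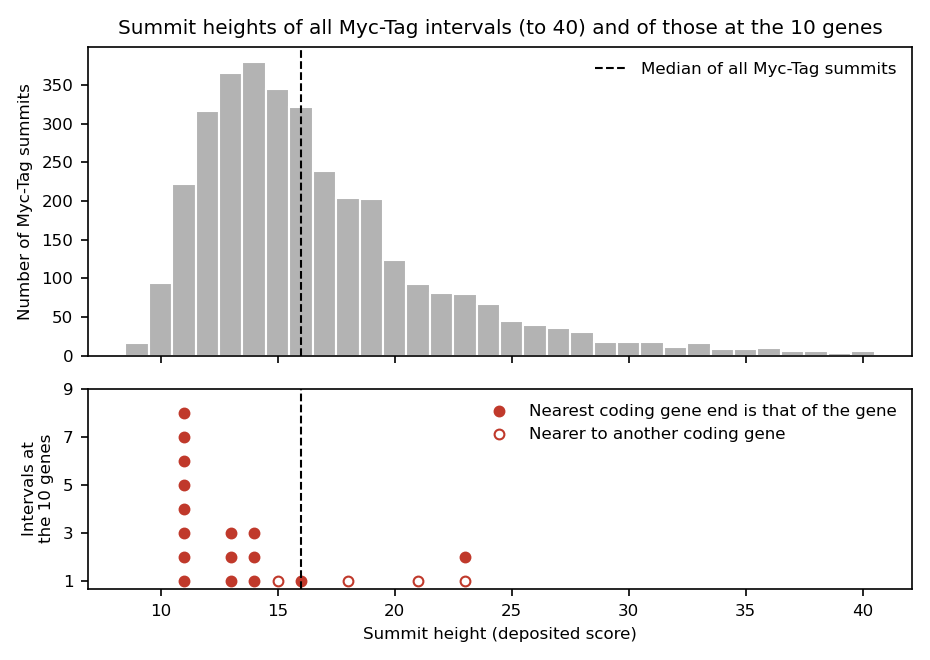
Top, the number of Myc-Tag summits at each height (deposited score) up to 40, with the median of all 3477 summits as a dashed line. Bottom, each of the 20 intervals at the 10 genes as a point, filled where the nearest protein-coding gene end is that of the gene. The largest group of points is at 11, and 15 of the 20 lie below the median of 16.

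Most summits at the members lay over 1 kb from the ends of protein-coding genes. Of the 20 summits, 5 (25%, 95% Wilson interval 11.2 to 46.9%) were within 1 kb of an end of a protein-coding gene, against 58.4% of all Myc-Tag summits (56.7 to 60.0%). The member windows hold long gene bodies and between 1 and 6 protein-coding genes each, so this share depends on the rule that chose the windows. It was not computed for windows of genes of like length. Another 9 (45.0%) were inside a protein-coding gene and over 1 kb from any end, against 24.1% of all. The other 6 (30.0%) were outside protein-coding genes and also over 1 kb from any end, against 17.5% of all. Summits inside genes and over 1 kb from any end had a median height of 15 over the whole library and 13 at the members. Counting from annotated starts, or from gene ends for Tox and the other genes without a start in the table, 3 of the 10 members (Myb, Cbfb and Satb1) had a summit within 1 kb, against 11.2% of all protein-coding genes. Among genes with a start in the table it was 3 of 9, against 11.4% of all and 13.7% of those of like length, and by either gene end it was the same 3, against 10.8%. None of these summits reached a height of 16.

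The rule stops at 50 kb, and the intervals on either side of that limit were as follows. The farthest interval inside it was the Lef1 interval with its summit at 45145 bp. The nearest outside was at Nol3, 58183 bp from Cbfb, with a height of 16. Of the first intervals outside the 10 windows, 1 had a member as its nearest protein-coding gene, again Lef1. It lay at chr3:131014137-131014922, with its summit 95769 bp upstream and a height of 28, above all 20 intervals inside the windows.

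Genes related to the 10 were counted by the same rule. These lists, like the 10 genes, were chosen with earlier results of these data known. Of 15 paralogs, 2 had an interval within 50 kb (13.3%, background 33.4%), and neither was the nearest protein-coding gene of one. These were Tcf7l1, with a height of 17, and Tox4, with 2 intervals and a greatest height of 23. Of the Tox4 intervals 1 overlapped the gene body, and a summit lay within 1 kb of a Tox4 start although another gene end was nearer. Among the paralogs without an interval within 50 kb were Tcf7l2, Gata1, Gata2, Bcl11a, Mybl2 and Runx2. The median body of the 15 paralogs, 72.8 kb, was close to the 75.5 kb of the members. Of 16 cofactors and partners, 12 had an interval within 50 kb (75%, background 33.4%). Of the 16, 6 were the nearest protein-coding gene of one (background 13.5%). The summit in the window of the acetyltransferase gene Crebbp, with a height of 41, and that of the chromatin remodeller gene Smarca4, with 22, lay nearer to other genes. The tallest at those 6 was at Kmt2a, a histone methyltransferase gene, with 27, followed by 18 at the histone deacetylase gene Hdac2 and at the acetyltransferase gene Ep300, and 17 at Ctnnb1, the gene of the TCF-1 and LEF-1 partner β-catenin. Zfpm1 and Cbfa2t3, corepressor genes, had a height of 14.

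Of 16 other regulators of the T lineage, 6 had an interval within 50 kb (37.5%, background 33.4% of all protein-coding genes). Of the 16, 4 were the nearest protein-coding gene of one (background 13.5%). Ikzf1 had 4 intervals with a greatest height of 25, Ets1 had 3, all inside the gene and up to 20, Tcf12 had 2 with up to 17, and Hes1 had 1 with 14. The intervals counted at Ikzf3 and Ptcra lay nearer to other genes. Among those without one were Gfi1, Zbtb7b, Bach2, Id3 and Tcf3. Of 18 regulators of progenitors and other lineages, 6 had an interval (33.3%, background 33.4%). Of the 18, 3 (Pax5, Flt3 and Klf1) were the nearest protein-coding gene of one (background 13.5%), with heights of 12, 16 and 11. As to cell type markers, 10 of 12 T-cell genes had an interval within 50 kb (83.3%). Of the 12, 5 were the nearest protein-coding gene of one (Rag2, Lck, Cd8b1, Cd3g and Cd3d). Of 6 B-cell genes 5 had an interval (83.3%) and 1 was the nearest. Of 6 myeloid genes 3 had an interval (50%) and 0 were the nearest. The backgrounds are again 33.4% and 13.5%. Genes that lie close together, such as Cd3g, Cd3d and Cd3e, can share an interval, and the T-cell list had 13 intervals in all. The transgene also carries an Lck promoter, and whether its fragments added to the Lck interval was not tested. Ptcra, Pax5, Spi1, Ebf1 and Cebpa each stand in more than 1 of these lists.

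**Figure D4:**
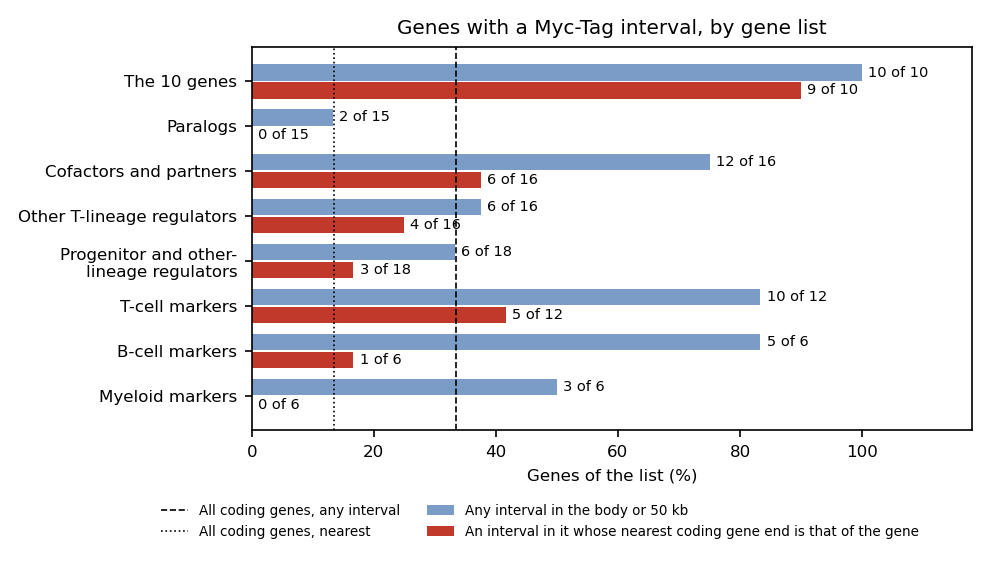
The share of genes of each list (%) with any Myc-Tag interval in the body or 50 kb (blue) and with an interval in that window whose nearest protein-coding gene end is that of the gene (red), with counts beside the bars. The dashed and dotted lines are the same shares over all protein-coding genes, 33.4% and 13.5%. By the stricter count 9 of the 10 genes and 0 of 15 paralogs had an interval, although 1 paralog, Tox4, had a summit within 1 kb of its start.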

How the data were processed

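The series holds a Myc-Tag ChIP and a control library of a Lck-Dlx5 T-cell lymphoma, 1 sample each. Per the methods, Active Motif performed the ChIP-seq on an Illumina GA II and called peaks by MACS p-value, and the submitters' processing notes name BWA. The MACS version, threshold and control are not given in the sources used here. The authors deposited intervals and, for each summit, a score, the height, whose normalization is not stated. The deposited active regions were identical to the 3477 intervals. The processing notes name mm9 and the paper's browser view mm10. The positions were read as mm10 because 47.0 to 70.7% of the summits of each autosome lay within 1 kb of a protein-coding gene end of GRCm38.p6. Of the summits, 3329 lay on multiples of 16 bp, so positions are not exact to the base.

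Gene bodies came from RefSeq (GRCm38.p6), and strand and starts from its promoter table, which held 9 of the 10 genes and 17491 of 21883 protein-coding genes. Exons and introns were not used here. An interval was counted at a gene when it shared at least 1 bp with the body or its 50 kb flanks. Background shares used the same rule over all protein-coding genes and over those with body lengths within the range of the members. Wilson and exact Poisson intervals (95%) cover counting error only. With 1 library per group no test was made. The members and lists were chosen with earlier results of these data known. All members were named with all their intervals, other genes where they were nearest to or overlapped by an interval, and from the other lists up to 8 genes with an interval. Zfpm1, Cbfa2t3 and the genes named as without an interval were chosen after their values were seen. The counting was tested on simulated data and run in Python 3.11.15 with pandas 2.3.3, scipy 1.17.1, numpy 2.4.6 and matplotlib 3.10.9. Alternatives were other distances, height thresholds, overlaps and gene assignments.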

Additional observations from a re-analysis of the deposited data

How the results depend on the processing

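Of 33 alternatives, 22 changed a count by at most 1.5 times or left a value within its 95% interval, and 11 moved further. The results are counts, shares, medians and densities, which have no direction that could reverse. All 10 genes kept an interval with 100 kb, with at least 50% of the interval inside the window and without intervals called in the control, while 9 did with 10 kb or with assignment to the nearest protein-coding gene, both without Runx3, and 7 in the body alone. Heights of at least 16 left 4 genes with 5 intervals, and heights of at least 19 left 2 genes with 3 intervals, in place of 10 genes with 20. The gene bodies alone held 10 intervals. Summits within 5 kb of a start or, for Tox, an end were found at 5 genes, with Tox and Runx1 added to the 3 reported, and at 0 when heights of at least 16 were required. An interval that touched a start, or an end for Tox, was found at 2 genes, Myb and Satb1, without Cbfb. The share of all protein-coding genes moved to 13.4% in the body alone, 19.0% with 10 kb and 44.7% with 100 kb, and was 24.2% over all annotated genes. These differences come from searching less or more sequence, dropping low summits or counting noncoding genes too. No paired analysis was possible because ChIP and control are 1 library apiece, nor could a replicate be omitted. The depth is unknown, so a gene without an interval is one where none was called, and binding there was not detectable at the calling threshold.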
